A study of Mus musculus with 14 samples.

Results

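The genes described here are 78 of the 22798 genes in the deposited table. They encode enzymes that reduce carbonyl groups or attach a water-soluble group to small molecules, and they were picked out by gene symbol: the aldo-keto reductases Akr1a to Akr1e (15 genes), the sulfotransferases Sult (18 genes), the cytosolic glutathione transferases of the alpha, kappa, mu, omega, pi, theta and zeta classes (21 genes), the microsomal glutathione transferases Mgst (3 genes) and the UDP-glycosyltransferases Ugt1, Ugt2, Ugt3 and Ugt8 (21 genes). The rule uses symbols and no measured value, but the families were chosen with earlier results of these data known. The shares of called genes given below are therefore not independent of these data. RNA was sequenced from epithelial cells taken from E14.5 mouse embryo stomachs, in 14 libraries. The hindstomach libraries were 3 controls (genotype label G4 cKO control, source label wild type; replicates 2, 3 and 4) and 5 libraries labelled GATA4 knock out (G4 cKO mutant; replicates 1 to 5). The forestomach libraries were 3 controls (G4 cKI control, wild type; replicates 2, 3 and 5) and 3 libraries labelled GATA4 knock in (G4 cKI mutant; replicates 1, 2 and 4). The labels call both alleles conditional in the series title but do not give the Cre driver or the knock-in construct, and they do not say whether replicates were separate embryos or litters. The hindstomach and forestomach controls carry different cross labels, so region and cross cannot be told apart in any comparison between them.

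Detoxification runs in steps. Aldo-keto reductases use a nicotinamide cofactor to turn reactive aldehydes and ketones, steroids among them, into alcohols, and the transferases then couple a sulfate, a glucuronic acid or a glutathione to the product so that it can be exported. In the adult gut these enzymes are known as part of the barrier that columnar epithelium presents to ingested compounds, and many of the genes lie in tandem arrays of close copies.

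Levels were fragments scaled to transcript length and library total (FPKM), and values below are given in the order of the replicate numbers above. Of the 78 genes 36 were tested, having 3 or more of the 14 libraries at 1 FPKM or above, namely 7 Akr1, 3 Sult, 18 Gst, 3 Mgst and 5 Ugt genes. Gsta1 and Sult1b1 reached an FPKM of 1 in the hindstomach controls alone, so they passed this filter only through the group in which they were high. Their differences from that group are given as values without a test, and counts are also given without them. The other 42 genes were not tested. Sult1c1, Sult2a1 to Sult2a7, Sult3a1 and Akr1c20 were listed at 0 in every library, and the highest value among the 42 was 2.41 FPKM, for Akr1c14 in a hindstomach control.

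Gata4 itself was measured at 65.7, 61.6 and 64.9 FPKM in the hindstomach controls and at 16.9, 19.4, 13.02, 32.1 and 59.6 FPKM in those labelled knockout. Knockout replicate 5 lay close to the controls. The difference did not pass the test (log2 fold change -1.37, SE 0.47, adjusted p = 0.0672). Among forestomach libraries the controls had 4.50, 1.33 and 0.573 FPKM of Gata4, and the knock-in-labelled ones 0.402, 0.319 and 1.27 FPKM. Gata4 was thus not raised in the knock-in-labelled libraries, against their label, and which part of the locus these reads cover is not given, so they are called by their label throughout. Libraries also differed in how the level of a gene varied with the GC content of its transcript. This slope, in log2 units per 10% GC, was 0.563 to 0.609 in the hindstomach controls and -0.522, -0.416, -0.575, 0.095 and 0.488 in the knockout libraries. It was 0.816, 0.618 and -0.61 in the forestomach controls and -0.701, -0.84 and -0.09 in the knock-in-labelled libraries. Forestomach control replicate 5 stood apart from the other 2 controls, and knockout replicate 5 stood apart from knockout replicates 1 to 3, so results that rest on either are given with and without it. Depth relative to the deepest library, estimated from the spacing of the lowest FPKM values, was 48.4% to 100%.

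The regional comparison set the RNA levels of hindstomach controls against those of forestomach controls, in which region and cross cannot be told apart. Of the 36 tested genes 15 were higher in the hindstomach and 3 were lower, 50% in all, where 20.3% of the 12694 genes tested were called, 9.7% higher and 10.7% lower. Without Gsta1 and Sult1b1 13 of 34 were higher and 3 lower. The median log2 fold change was 1.77 for the 36 genes and 0.14 for all genes tested. The genes higher in the hindstomach came from every family, among them Akr1c12, Akr1c13 and Akr1c19, Sult1d1, Gstm1 and Gstm3, Mgst2, and Ugt2b34 and Ugt2b35. The 3 lower genes were Akr1e1, Ugt1a6a and Ugt1a6b. All 6 markers of glandular stomach were higher and all 6 of forestomach squamous epithelium lower in the same comparison. Tff2 and Gkn3 of the glandular markers reached 1 FPKM in the hindstomach controls alone, so they passed the filter only through that group. Of 7 mesenchymal markers 6 were lower, with summed FPKM of 29.5 to 92.2 in the hindstomach and 459 to 774 in the forestomach controls. In bulk RNA fewer cells of a type and less RNA per cell cannot be told apart. Markers of liver, an organ rich in these enzymes, were sparse: Alb, Fgb, Apoa2, Ahsg and Serpina1a were all under 1 FPKM in each hindstomach control, while Afp averaged 12.7 and Ttr 24.5 FPKM. These last 2 moved with the regional result, since they averaged 2.19 and 0.353 FPKM in the forestomach controls and were called higher in the hindstomach (adjusted p = 0.00502 and 0.000124). Alb, Apoa2, Fgb and Ahsg, under the filter and not tested, went the other way. They averaged 0.129, 0.279, 0.012 and 0.055 FPKM in the hindstomach controls and 2.20, 1.32, 0.212 and 0.315 FPKM in the forestomach controls. Serpina1a averaged 0.595 FPKM in the hindstomach and 0.0849 FPKM in the forestomach controls. Summed over all 7 liver markers the level was 28.6 to 49.1 FPKM in the hindstomach controls and 1.12 to 11.05 FPKM in the forestomach controls. Vil1 of intestine (7.32 against 0.0485 FPKM) was also called higher. Pdx1 of pancreas averaged 1.63 FPKM against a listing of 0, and it passed the filter through the hindstomach controls alone. The part of these cell types in the result was not tested.

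Against the hindstomach controls, the knockout libraries had 1 of the 36 genes higher (Gsta3) and 14 lower, 41.7% called, where 13.2% of all genes were called, 6.96% higher and 6.28% lower. Without Gsta1 and Sult1b1 12 of 34 were lower and 1 higher. The median log2 fold change was -0.999 for the 36 genes and -0.08 for all genes. The lower genes were 2 Akr1, 2 Sult, 6 Gst, 2 Mgst and 2 Ugt genes. Without knockout replicate 5 the count of lower genes was 18, and without forestomach control replicate 5, which enters only through the shared estimate of the spread, it was 19. It was 7 without hindstomach control replicate 2 or replicate 4 and 9 without replicate 3. Over all 12694 genes the lower counts in these fits were 2361, 2647, 219, 198 and 452 in the order given. All 6 glandular markers fell in this comparison, of which Tff2 and Gkn3 passed the filter through the hindstomach controls alone. Of 7 mesenchymal markers 6 rose, with a mesenchymal sum of 131 to 519 FPKM in the knockout libraries, and 3 of 6 squamous markers rose. Of 3 tested liver markers Ttr was called lower, although its groups overlapped, and Afp had a lower mean (7.23 against 12.7 FPKM) and was not called. Serpina1a went the other way, from 0.595 to 4.41 FPKM, and was not called (log2 fold change 1.48, adjusted p = 0.0566). The liver sum was 7.27 to 38.4 FPKM in the knockout libraries. Vil1 of intestine fell. Pdx1 of pancreas, which passed the filter through the hindstomach controls alone, averaged 0.211 FPKM in the knockout and 1.63 FPKM in the controls. The summed epithelial markers were 1141 to 1401 FPKM in controls and 423 to 902 FPKM in knockout libraries, with none of the 6 called. The part of cell composition in these results was not tested.

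In the knock-in-labelled libraries 5 of the 36 genes were higher than in the forestomach controls, 13.9%, where 5.85% of all genes were called, 2.62% higher and 3.22% lower. They were Akr1c12, Akr1c13, Akr1c19, Ugt2b34 and Ugt8a. None was called lower by limma, with 9 lower at an unadjusted p under 0.05. Without forestomach control replicate 5 the counts were 6 higher and 19 lower, where 1743 of all 12694 genes were higher and 5272 lower. Without knock-in replicate 4 there were 8 lower, where 2389 of all genes were lower. The higher count was 3 without any one of hindstomach control 2, forestomach control 2 or 3, or knock-in 1 or 2. Over all genes the higher counts in those fits were 151, 70, 172, 68 and 80. A fit of these 2 groups alone called 0 of the 12694 genes, with 6 of these genes higher at an unadjusted p under 0.05. Of 6 squamous markers 4 fell, 1 of 6 glandular markers (Muc1) rose, 1 of 6 epithelial markers (Epcam) rose and 1 of 7 mesenchymal markers fell in the same comparison. The summed epithelial markers were 367.5 to 876.5 FPKM in the forestomach controls and 470 to 853.5 FPKM in the knock-in-labelled libraries. Krt8, Krt18 and Krt19 had lower means in the latter (32.86, 23.56 and 23.63 against 94.85, 59.3 and 178.7 FPKM). Cdh1 and Cldn7 had higher ones, and none of these was called. Of 4 mesothelial markers 2 fell, Upk3b and Lrrn4, with a mesothelial sum of 49.2 to 76.2 FPKM in the forestomach controls and 17.2 to 23.7 FPKM in the knock-in-labelled libraries.

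**Figure D1:**
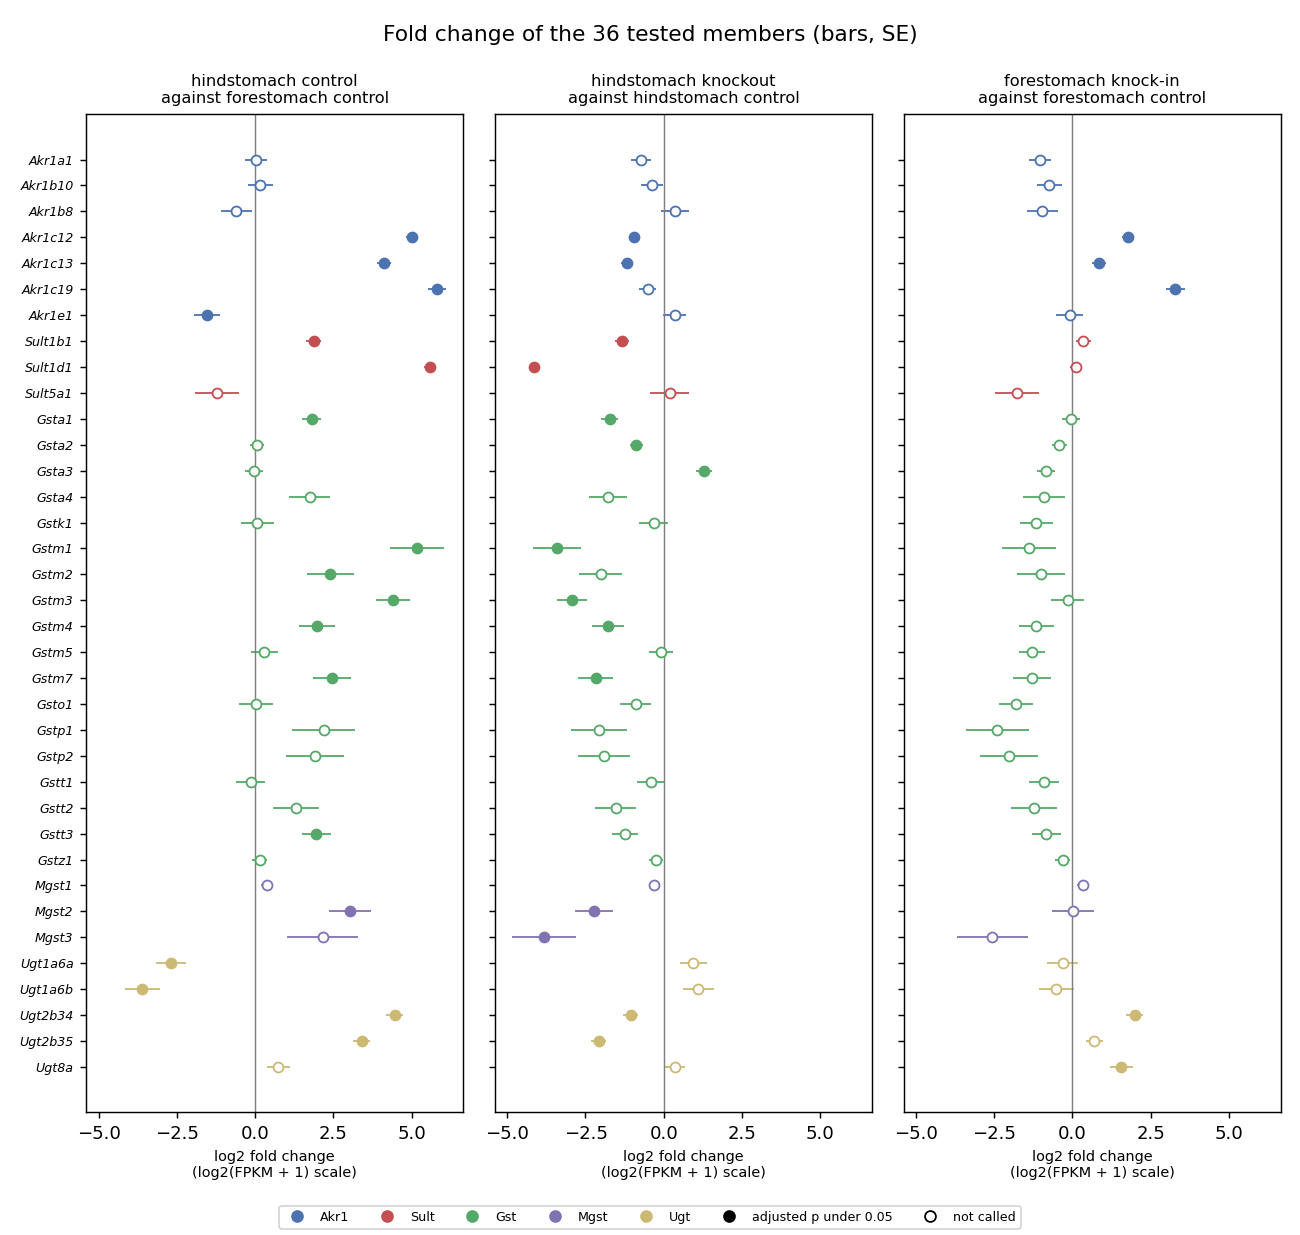
Log2 fold change with its standard error for the 36 tested genes, on the log2(FPKM + 1) scale, in 3 comparisons, coloured by family; filled points passed an adjusted p of 0.05. Points lie mostly right of 0 in the regional comparison (15 filled) and left of 0 in the knockout comparison (14 filled), while the 5 filled points of the knock-in comparison are Akr1c, Ugt2b34 and Ugt8a.

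Akr1c genes gave the largest differences among the aldo-keto reductases. In the RefSeq annotation of GRCm38 the array on chromosome 13 reads Akr1c14, Akr1c18, Akr1c13, Akr1c19, Akr1c12, Akr1c6, Akr1c20, Akr1c21 and Akr1e1, and the 3 highest in the hindstomach are the adjacent Akr1c13, Akr1c19 and Akr1c12. The sequences shown are the 250 bases before the start of these 3 genes, the highest of the array, and of Sult1d1 and Ugt2b34, the leading sulfotransferase and glucuronosyltransferase. They are read 5′ to 3′ on the gene's strand from the RefSeq promoter table of GRCm38.p6, at chr13:4190937-4191186 (plus strand), chr13:4233490-4233739 (plus), chr13:4279400-4279649 (minus), chr5:87569007-87569256 (minus) and chr5:86906938-86907187 (minus). Capitals mark the letters AGATAA, its variant AGATAG, the form TGATAA or its variant TGATAG on either strand, forms that GATA factors are known to bind.
Akr1c13: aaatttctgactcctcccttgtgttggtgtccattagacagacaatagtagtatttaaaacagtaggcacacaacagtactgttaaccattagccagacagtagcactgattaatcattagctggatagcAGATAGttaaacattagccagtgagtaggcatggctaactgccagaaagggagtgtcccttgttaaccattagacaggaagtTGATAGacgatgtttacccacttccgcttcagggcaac
Akr1c19: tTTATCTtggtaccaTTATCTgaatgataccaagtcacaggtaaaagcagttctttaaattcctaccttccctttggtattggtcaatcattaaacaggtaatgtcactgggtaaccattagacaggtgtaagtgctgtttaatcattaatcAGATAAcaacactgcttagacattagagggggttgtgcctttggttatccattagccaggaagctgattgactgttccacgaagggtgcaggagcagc
Akr1c12: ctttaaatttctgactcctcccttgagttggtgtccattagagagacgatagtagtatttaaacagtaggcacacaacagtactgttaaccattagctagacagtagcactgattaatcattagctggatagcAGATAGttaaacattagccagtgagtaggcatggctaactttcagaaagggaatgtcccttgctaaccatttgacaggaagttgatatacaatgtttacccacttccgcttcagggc
Sult1d1: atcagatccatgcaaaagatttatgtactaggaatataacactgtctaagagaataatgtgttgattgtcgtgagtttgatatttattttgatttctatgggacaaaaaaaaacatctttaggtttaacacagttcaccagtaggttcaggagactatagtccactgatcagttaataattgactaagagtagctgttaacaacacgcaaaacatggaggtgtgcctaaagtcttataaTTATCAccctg
Ugt2b34: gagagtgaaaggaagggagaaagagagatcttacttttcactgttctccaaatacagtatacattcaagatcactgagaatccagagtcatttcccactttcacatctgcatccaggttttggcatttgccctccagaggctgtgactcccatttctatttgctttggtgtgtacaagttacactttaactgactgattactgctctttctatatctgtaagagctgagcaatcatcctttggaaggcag

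Akr1c13 and Akr1c12 were identical at 235 of 254 aligned positions (92.5%) in these windows, and Akr1c13 and Akr1c19 at 143 of 256 (55.9%). Akr1c12 held 1 GATA match, 117 bases before the start, Akr1c13 held 2 and Akr1c19 held 3, while Sult1d1 held 1 and Ugt2b34 held 0. Over all promoters of this length 29.7% of 27025 genes held at least 1 match, as did 44.1% of the 68 genes of these families that the table holds and 39.4% of the 33 tested ones. Of the 15 genes higher in the hindstomach 8 held a match (53.3%). The 15 include Gsta1, with 1 match, and Sult1b1, with 0, which passed the filter through the hindstomach controls alone. The 8 include Akr1c12, Akr1c13 and Akr1c19, the first 2 of them 92.5% identical here, so they are not independent. This share was not tested. The antioxidant response element, searched as TGACNNNGC on both strands, was in 5.88% of the 68, in 12.1% of the 33 tested and in 11.5% of all promoters. These are letter matches in a window, not measured sites.

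Akr1c12, an aldo-keto reductase of the steroid-reducing 1C branch, was at 124, 118 and 125 FPKM in the hindstomach controls and at 63.8, 70.2, 69.4, 50.2 and 64.5 FPKM in the knockout libraries. It was at 3.11, 3.24 and 2.20 FPKM in the forestomach controls and at 11.9, 9.68 and 15.2 FPKM in the knock-in-labelled libraries. The 4 groups did not overlap, and the order ran hindstomach control, knockout, knock-in, forestomach control. The knockout mean was 52.0% of the hindstomach control mean (log2 fold change -0.94, SE 0.16, adjusted p = 0.00395 by limma; exact permutation p = 0.0357, the smallest that 5 against 3 allows). The knock-in mean was 4.30 times the forestomach control mean (log2 fold change 1.77, SE 0.18, adjusted p = 0.00033), where an exact test of 3 against 3 cannot go below 0.1, the value it gave. Adjusted over the 60 exact tests made for 15 genes, the smallest p was 0.0974 for 5 against 3 and 0.14 for 3 against 3, so no exact test passed after adjustment.

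Akr1c13, which shares 28.6% of its transcript's 50-base windows with Akr1c12, so that reads may be split between them, was at 193, 174 and 191 FPKM in the hindstomach controls and at 85.2, 98.1, 87.8, 60.2 and 84.9 FPKM in the knockout libraries. It was at 9.95, 11.9 and 8.02 FPKM in the forestomach controls and 17.5, 13.9 and 25.1 FPKM in the knock-in-labelled libraries. Again no group overlapped with another. In the knockout its log2 fold change was -1.17 (SE 0.20, adjusted p = 0.00408, limma), and in the knock-in comparison it rose by 0.83 (SE 0.22, adjusted p = 0.0481). That last call was kept when 2 of the 14 libraries were left out in turn and lost for the other 12, with an adjusted p of 0.0533 without knockout replicate 5.

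Akr1c19, in the middle of the trio, had the largest change in the knock-in comparison. It was at 148, 134 and 140 FPKM in the hindstomach controls and at 100.1, 117, 110, 75.6 and 92.3 FPKM in the knockout libraries. It was at 0.966, 1.61 and 2.19 FPKM in the forestomach controls and 42.3, 18.1 and 17.6 FPKM in the knock-in-labelled libraries. Every knockout library lay below every control, but the mean stayed at 70.3% of the control and the difference did not pass the test (log2 fold change -0.52, SE 0.26, adjusted p = 0.156). The knock-in mean was 16.4 times the forestomach control mean (log2 fold change 3.29, SE 0.29, adjusted p = 0.000127, limma), with replicate 1 above the other 2. Between control regions the 3 genes differed by log2 fold changes of 5.01 (Akr1c12), 4.11 (Akr1c13) and 5.80 (Akr1c19), with adjusted p of 7.49e-09, 2.82e-07 and 1.87e-07. The knockout libraries still exceeded the forestomach controls by 4.07, 2.94 and 5.28 on the log2 scale.

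Their neighbours did not share these levels. Akr1c14 had group means of 1.42, 0.725, 0.229 and 0.151 FPKM in hindstomach control, knockout, forestomach control and knock-in, and Akr1c18, a progesterone-reducing enzyme, reached at most 0.979 FPKM. Akr1c6, Akr1c20 and Akr1c21 stayed at or under 0.0842 FPKM. Akr1e1, at the other end of the array, was lower in the hindstomach controls (5.97 ± 3.70 FPKM, SD, n = 3) than in the forestomach controls (17.5 ± 0.307 FPKM, n = 3), with a log2 fold change of -1.53 (adjusted p = 0.0214), a call lost without hindstomach control 2 or 3 or forestomach control 2 (adjusted p up to 0.0897). It was at 7.87 ± 4.16 FPKM in the knockout (n = 5) and 16.6 ± 3.61 FPKM in the knock-in libraries (n = 3), called in neither. Akr1a1, the aldehyde reductase that also serves ascorbate synthesis in mice, had the highest mean of its family. It was at 267 ± 31.6 FPKM in the hindstomach controls, 163 ± 40.7 in the knockout, 274 ± 110 in the forestomach controls and 133 ± 56.9 in the knock-in libraries, and it was called in no comparison. Akr1b3 was near 0 except for 0.884 and 1.55 FPKM in knockout replicates 2 and 3.

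**Figure D2:**
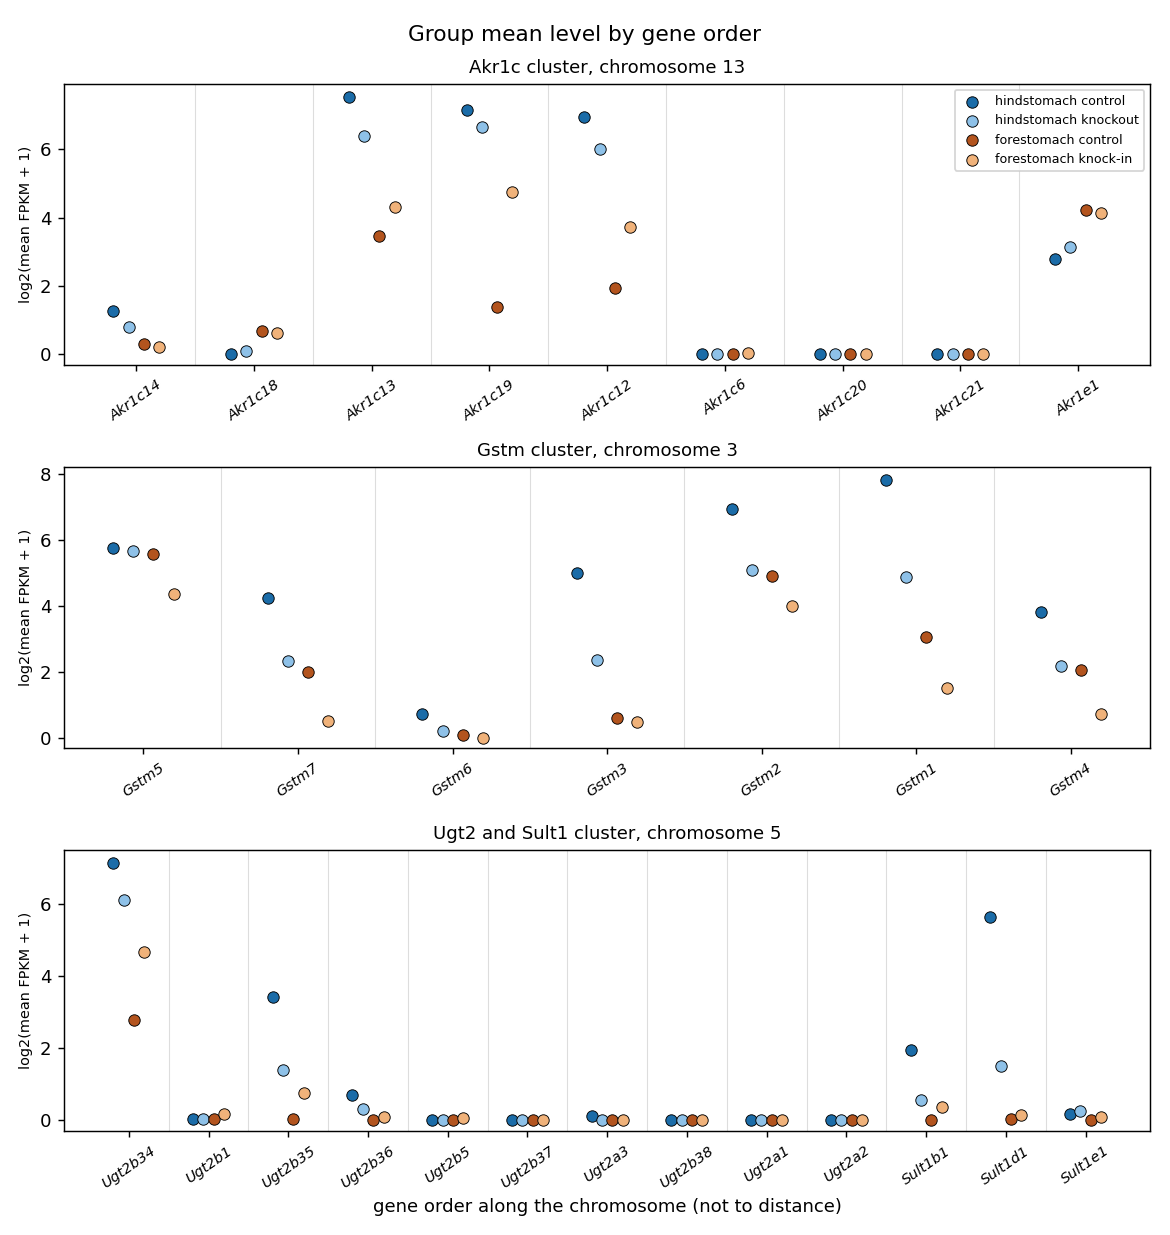
Group mean level, as log2(mean FPKM + 1), of the genes of 3 tandem arrays in their order along the chromosome (not to distance). High levels occupy the adjacent Akr1c13, Akr1c19 and Akr1c12 on chromosome 13, most of the Gstm array on chromosome 3, and Ugt2b34, Ugt2b35, Sult1b1 and Sult1d1 in the array on chromosome 5, where the other genes are near 0.

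Among the sulfotransferases, which transfer sulfate from the donor PAPS, Sult1d1 carried the result. Sult1d1, known in mice for sulfating catecholamines and related phenols, was at 41.9, 52.7 and 51.1 FPKM in the hindstomach controls and at 1.38, 1.51, 1.94, 1.93 and 2.43 FPKM in the knockout libraries. It was at 0.0833 FPKM in 1 forestomach control, listed at 0 in the other 2, and at 0.0233, 0.218 and 0.104 FPKM in the knock-in-labelled libraries. The knockout mean was 3.78% of the control mean, the change with the smallest adjusted p of the 36 genes in that comparison (log2 fold change -4.13, SE 0.17, adjusted p = 6.65e-08, limma; exact permutation p = 0.0357). Knockout replicate 5, whose Gata4 was close to the controls, had Sult1d1 at 2.43 FPKM, the highest of the 5 but far below every control, and without it the log2 fold change was -4.20 (adjusted p = 1.88e-07). The knockout libraries remained above the forestomach controls by a log2 fold change of 1.45 (SE 0.17, adjusted p = 0.000193). In the knock-in comparison Sult1d1 was not called (log2 fold change 0.11, SE 0.19, adjusted p = 0.634).

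Sult1b1, the neighbour of Sult1d1 and known for sulfating phenols and thyroid hormone, showed the same order at lower levels. It was at 2.26, 1.76 and 4.66 FPKM in the hindstomach controls and at 0.752, 0.319, 0.589, 0.360 and 0.372 FPKM in the knockout libraries. Forestomach controls were listed at 0 in 2 libraries and at 0.0447 FPKM in the third, and the knock-in-labelled libraries were at 0.234, 0.124 and 0.549 FPKM. No knockout library reached the controls, with a log2 difference of -1.33. The knock-in libraries all lay above the forestomach controls, yet the difference was not called (log2 fold change 0.35, adjusted p = 0.261) and all values were under 1 FPKM. Sult5a1 was the third tested member, at 1.95, 2.02 and 0.483 FPKM in the hindstomach controls and 1.004, 0.664, 1.08, 3.36 and 3.72 FPKM in the knockout libraries. It was at 11.8, 6.90 and 0.606 FPKM in the forestomach controls and at 0.417, 0 and 1.92 FPKM in the knock-in-labelled libraries. The groups overlapped in all 4 comparisons, and it was called in none. Without forestomach control replicate 5 it was called lower in the knock-in comparison (log2 fold change -2.65, adjusted p = 0.00674), in the hindstomach controls against the forestomach (-2.09, adjusted p = 0.0211) and in the knockout against the forestomach (-1.90, adjusted p = 0.0183). With the GC slope as a covariate it was called higher in the knockout (1.56, adjusted p = 0.00632) and lower in the hindstomach than the forestomach controls (-1.75, adjusted p = 0.000301). The other 15 sulfotransferases were under the filter, the highest of them Sult1a1, a phenol sulfotransferase, with a mean of 1.44 FPKM in the forestomach controls.

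**Figure D3:**
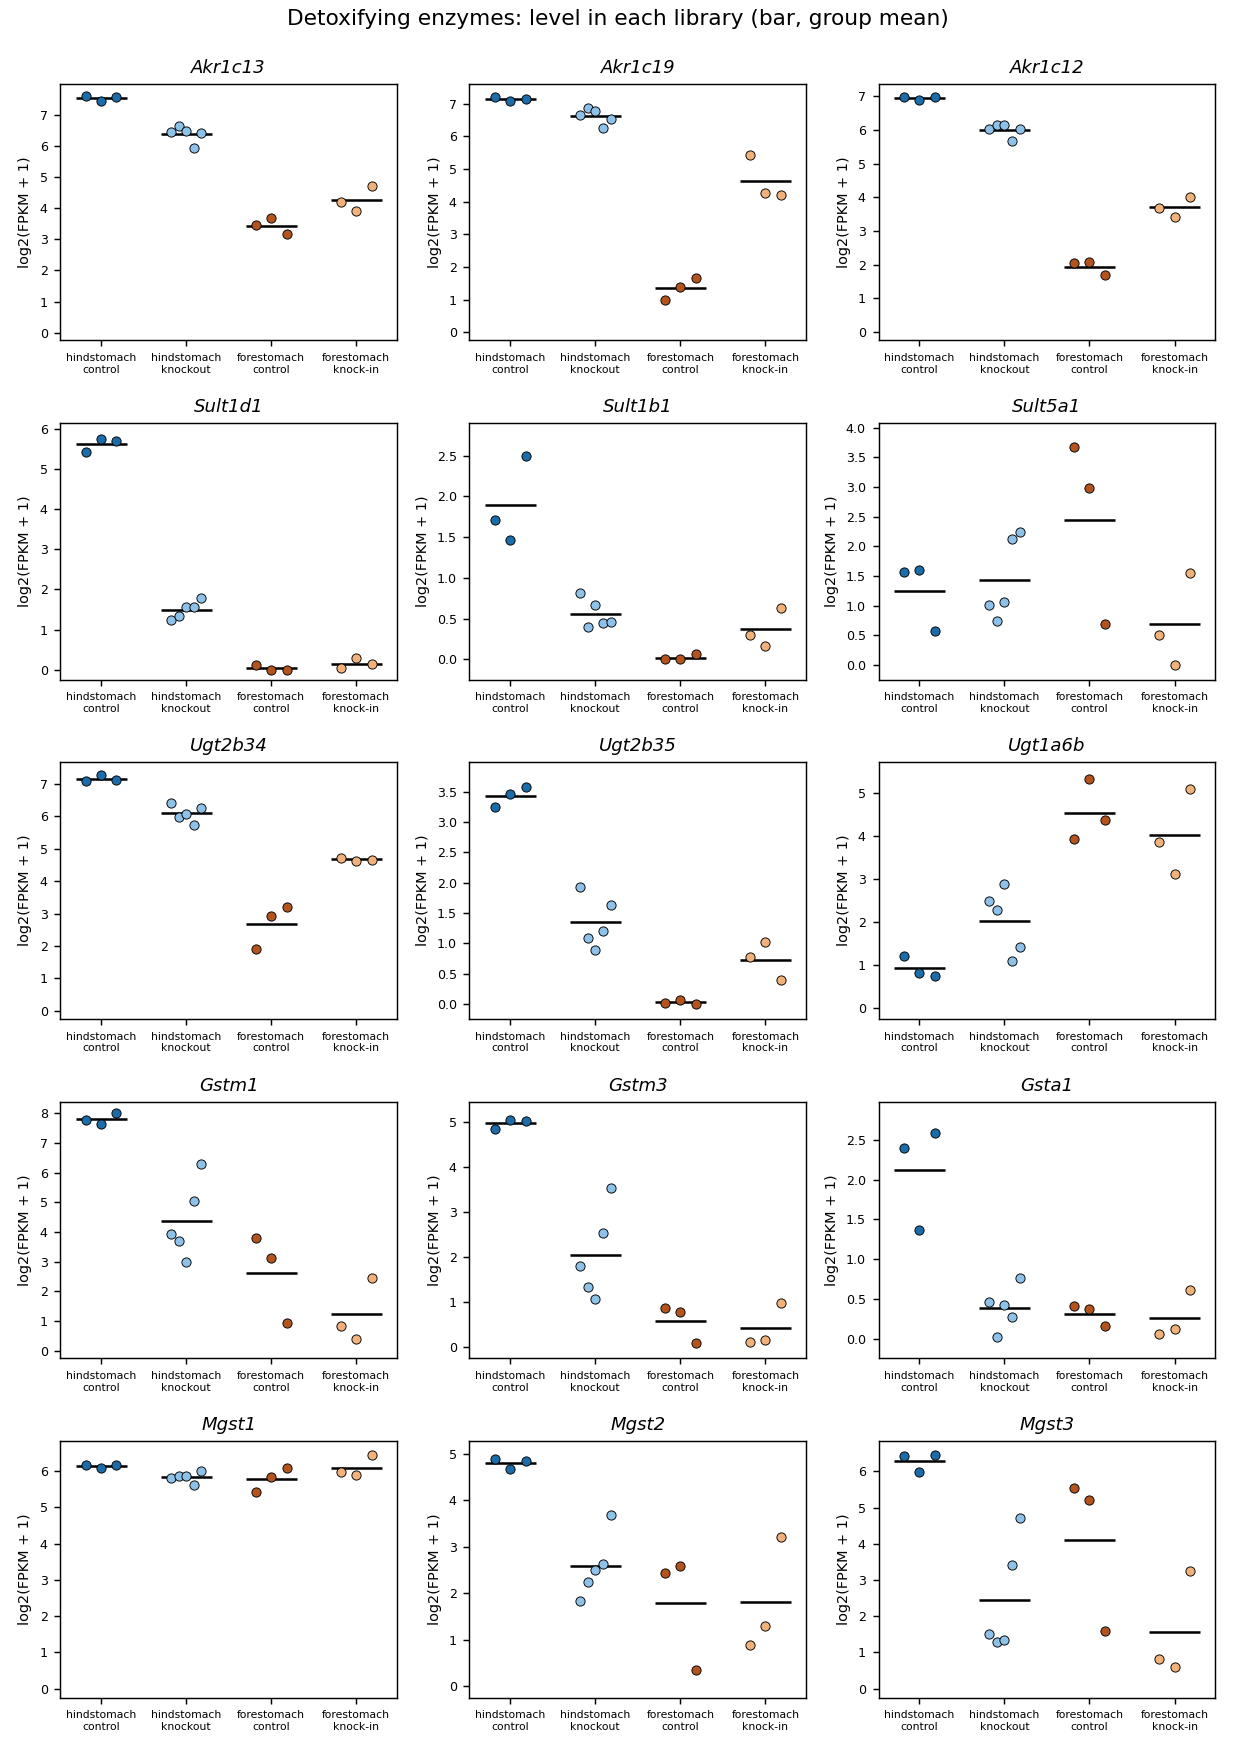
Level of 15 genes in each of the 14 libraries, as log2(FPKM + 1), with the group mean as a bar; these are the 3 genes per family with the smallest adjusted p. For Akr1c12, Akr1c13 and Akr1c19 the knockout points lie just below the hindstomach controls and the knock-in points above the forestomach controls, whereas Sult1d1 falls to 1.38 to 2.43 FPKM in the knockout, and Gstm1, Mgst2 and Mgst3 spread widely within groups.

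Among the UDP-glucuronosyltransferases, Ugt2b34 and Ugt2b35 were higher in the hindstomach than the forestomach controls and Ugt1a6a and Ugt1a6b lower. On chromosome 5 the RefSeq order runs from Ugt2b34 through Ugt2b1, Ugt2b35, Ugt2b36, Ugt2b5, Ugt2b37, Ugt2a3, Ugt2b38, Ugt2a1 and Ugt2a2 to Sult1b1, Sult1d1 and Sult1e1, and 4 of these 13 genes were tested. Ugt2b34 was at 133, 152 and 136 FPKM in the hindstomach controls and at 84.5, 62.2, 65.7, 51.7 and 75.5 FPKM in the knockout libraries. It was at 2.78, 6.52 and 8.26 FPKM in the forestomach controls and at 25.4, 23.5 and 24.3 FPKM in the knock-in-labelled libraries. As with the Akr1c trio no group overlapped with another and the order was the same. The knockout mean was 48.4% of the control mean (log2 fold change -1.05, SE 0.24, adjusted p = 0.0183, limma), and the knock-in mean was 4.17 times its control (log2 fold change 1.99, SE 0.27, adjusted p = 0.00256). The regional difference was a log2 fold change of 4.46 (SE 0.27, adjusted p = 7.61e-07). Its knockout call was lost after rescaling or quantile normalization and without any 1 hindstomach control, with an adjusted p of up to 0.115 and a log2 fold change of -0.77 to -1.39 over all settings.

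Ugt2b35 was at 8.45, 9.96 and 11.0 FPKM in the hindstomach controls and at 2.80, 1.13, 0.851, 1.31 and 2.09 FPKM in the knockout libraries. The forestomach controls were at 0.0116, 0.0473 and 0 FPKM and the knock-in-labelled libraries at 0.699, 1.03 and 0.318 FPKM. It fell in the knockout with a log2 fold change of -2.08 (SE 0.24, adjusted p = 0.000367, limma) with no overlap of groups. The knock-in libraries all lay above their controls, with a log2 fold change of 0.70 that was not called (SE 0.26, adjusted p = 0.102). Ugt2b36 had a mean of 0.638 FPKM in the hindstomach controls, and the highest value of the 7 other genes that lie between Ugt2b34 and Sult1b1 was 0.178 FPKM.

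Ugt1a6a and Ugt1a6b, phenol glucuronosyltransferases, ran the other way. They share the last exons of the Ugt1a locus, and 100% and 80.7% of their 50-base windows occur in another gene's transcript, so their levels are uncertain against each other and against the other Ugt1a genes. Ugt1a6b was at 1.31, 0.776 and 0.679 FPKM in the hindstomach controls and at 4.60, 3.85, 6.33, 1.12 and 1.67 FPKM in the knockout libraries. It was at 14.1, 38.5 and 19.7 FPKM in the forestomach controls and at 13.6, 7.65 and 32.7 FPKM in the knock-in-labelled libraries. Hindstomach controls lay below all forestomach controls (log2 fold change -3.60, SE 0.55, adjusted p = 0.000624, limma), and the knockout libraries did so too (-2.50, SE 0.49, adjusted p = 0.00602). Knockout and hindstomach control overlapped, and their difference of 1.10 was not called (SE 0.49, adjusted p = 0.122). Ugt1a6a had means of 0.283 ± 0.188, 1.66 ± 1.24, 7.93 ± 4.74 and 6.30 ± 3.83 FPKM in hindstomach control (n = 3), knockout (n = 5), forestomach control (n = 3) and knock-in (n = 3), with a regional log2 fold change of -2.68 (adjusted p = 0.00202). Ugt1a9 of the same locus, which was not tested, was at 1.04, 0.582 and 2.07 FPKM in the hindstomach controls and at 0.0429 FPKM or less in the forestomach controls. Ugt8a, which makes galactosylceramide and is not a detoxifying enzyme, was at 17.4 ± 7.16 FPKM in the forestomach controls and 50.8 ± 7.24 FPKM in the knock-in-labelled libraries (n = 3 each; log2 fold change 1.56, SE 0.36, adjusted p = 0.0332). With the GC slope of each library as a covariate that log2 fold change was 0.92 (adjusted p = 0.0533), and the call was also lost without hindstomach control 2, forestomach control 2 or 3, or knock-in 1 or 2.

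The cytosolic glutathione transferases were the most abundant family, with a summed level of 1814 ± 275 FPKM in the hindstomach controls, 607 ± 273 in the knockout, 732 ± 449 in the forestomach controls and 313 ± 278 in the knock-in-labelled libraries. Of the 18 tested genes 7 were higher in the hindstomach than the forestomach controls, and in the knockout 6 were lower and 1 higher, Gsta1 being counted in the 7 and the 6, while 0 of 18 were called in the knock-in comparison. The mu class on chromosome 3, in the order Gstm5, Gstm7, Gstm6, Gstm3, Gstm2, Gstm1 and Gstm4, held 4 of the 6 lower genes. Gstm1 was at 219, 199 and 253 FPKM in the hindstomach controls and at 14.3, 11.9, 6.94, 31.7 and 76.5 FPKM in the knockout libraries. It was at 13.04, 7.77 and 0.913 FPKM in the forestomach controls and at 0.805, 0.324 and 4.41 FPKM in the knock-in-labelled libraries. Every knockout library lay below every hindstomach control, but replicates 4 and 5, those with the highest Gata4 and the highest GC slope of the 5, were also the highest for Gstm1. It fell by 3.42 in log2 terms in the knockout (SE 0.77, adjusted p = 0.0163, limma), by 3.90 without replicate 5 (adjusted p = 0.00382) and by 1.65 with the GC slope as a covariate (adjusted p = 0.00155). The call was lost without hindstomach control 2 or 4, with an adjusted p of up to 0.115 over all settings.

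Gstm3 was at 27.8, 32.1 and 31.5 FPKM in the hindstomach controls and at 2.46, 1.51, 1.09, 4.79 and 10.6 FPKM in the knockout libraries. It was at 0.818, 0.703 and 0.0616 FPKM in the forestomach controls and at 0.0751, 0.118 and 0.971 FPKM in the knock-in-labelled libraries. Knockout libraries fell between both control groups without overlap. The log2 fold change was -2.92 in the knockout (SE 0.47, adjusted p = 0.0034) and -2.01 with the GC covariate (adjusted p = 0.00295). Of the 50-base windows of Gstm1 and Gstm3 23.1% and 28.8% occur in other transcripts. Gstm4 and Gstm7 fell by 1.78 and 2.18 (adjusted p = 0.04 and 0.025), by 0.62 and 0.95 with the GC covariate (adjusted p = 0.0344 and 0.013). Both calls were lost without any 1 hindstomach control or any 1 of knockout replicates 1 to 3, and that of Gstm4 also without knockout 4 or knock-in 1. Gstm2, at 120 ± 6.24 FPKM in the hindstomach controls and 32.8 ± 20.0 FPKM in the knockout (n = 3 and 5), did not pass the test there (log2 fold change -2.02, adjusted p = 0.0629). Its regional call (log2 fold change 2.40, adjusted p = 0.0406) and that of Gstm4 (1.97, adjusted p = 0.0277) were lost without forestomach control replicate 5 (adjusted p = 0.14 and 0.091) and without any 1 hindstomach control, and leaving out 9 of the 14 libraries in turn ended that of Gstm2. Gstm5, at the end of the array, was at 52.4 ± 5.59 FPKM in the hindstomach controls and 49.0 ± 4.81 in the knockout (log2 fold change -0.09, SE 0.37, adjusted p = 0.852).

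Alpha-class genes did not move together. Gsta1 was at 4.27, 1.58 and 5.01 FPKM in the hindstomach controls and at 0.374, 0.0160, 0.335, 0.204 and 0.701 FPKM in the knockout libraries. It was at 0.334, 0.289 and 0.119 FPKM in the forestomach controls and at 0.0435, 0.0882 and 0.526 FPKM in the knock-in-labelled libraries. All libraries other than the hindstomach controls were under 1 FPKM, and the knockout differed from those controls by -1.73 in log2 terms. Of its 50-base windows 89.7% occur in other transcripts, so reads of copies cannot be kept apart from it. Gsta2 was also lower in the knockout (0.181 ± 0.166 FPKM, n = 5) than in the controls (1.20 ± 0.545 FPKM, n = 3), a call that was lost with the GC covariate (adjusted p = 0.0765) and without hindstomach control 2 or 4. Of the 50-base windows of Gsta2 64.2% occur in other transcripts, 44.8% in Gsta1, so reads may be split between these genes. Gsta3 was the 1 gene of the 36 that rose, from 2.88, 2.62 and 1.83 FPKM in the hindstomach controls to 5.05, 10.7, 8.15, 5.69 and 8.36 FPKM in the knockout libraries. The groups did not overlap (log2 fold change 1.29, SE 0.25, adjusted p = 0.00834, not called without hindstomach control 4), and none of its 50-base windows occurs in another gene's transcript. The knockout libraries also exceeded the forestomach controls, at 2.51, 2.67 and 2.31 FPKM (log2 fold change 1.26, adjusted p = 0.00614). Knock-in-labelled libraries lay below those controls, at 0.901, 0.453 and 1.63 FPKM, and were not called (log2 fold change -0.85, adjusted p = 0.0769).

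Gsta4, which conjugates the lipid aldehyde 4-hydroxynonenal, had the highest mean of all 78 genes. It was at 768 ± 144 FPKM in the hindstomach controls, 234 ± 99.5 in the knockout, 282 ± 179 in the forestomach controls and 158 ± 144 in the knock-in-labelled libraries. Its fall in the knockout was not called (log2 fold change -1.78, SE 0.60, adjusted p = 0.0639) and passed without replicate 5 (-1.99, adjusted p = 0.032). The pi-class pair Gstp1 and Gstp2, near-identical copies over 62.3% and 64.3% of their windows, had hindstomach control means of 265 ± 48.8 and 57.3 ± 11.4 FPKM and knockout means of 79.5 ± 67.1 and 17.5 ± 13.3 FPKM. Neither was called in any comparison, with knockout log2 fold changes of -2.08 and -1.91 (adjusted p = 0.114 and 0.115). With the GC covariate Gsta4, Gstp1 and Gstp2 were called higher in the hindstomach than the forestomach controls (log2 fold changes 1.23, 1.36 and 1.16; adjusted p = 0.00416, 0.000523 and 0.001). Gstt3, of the theta class, was higher in the hindstomach than in the forestomach controls (34.8 ± 5.60 against 8.99 ± 4.54 FPKM, n = 3 each; log2 fold change 1.96, adjusted p = 0.00972). Gsto1, Gstk1 and Gstz1, of the omega, kappa and zeta classes, were called in no comparison, and their regional log2 fold changes were 0.02, 0.06 and 0.14 with SEs of 0.55, 0.52 and 0.25.

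The microsomal transferases, membrane proteins that also reduce lipid hydroperoxides or make leukotriene C4, split 2 against 1. Mgst1 was at 71.4, 67.5 and 71.8 FPKM in the hindstomach controls and at 55.02, 57.1, 58.0, 48.3 and 63.2 FPKM in the knockout libraries. It was at 41.7, 56.2 and 66.9 FPKM in the forestomach controls and at 62.1, 58.3 and 85.9 FPKM in the knock-in-labelled libraries. It was called in no comparison, although every knockout library lay below every hindstomach control (log2 fold change -0.32, SE 0.17, adjusted p = 0.168). Mgst2 was at 28.5, 24.5 and 27.9 FPKM in the hindstomach controls and 2.57, 3.69, 4.69, 5.20 and 11.8 FPKM in the knockout libraries. It was at 4.38, 4.97 and 0.262 FPKM in the forestomach controls and at 0.858, 1.46 and 8.25 FPKM in the knock-in-labelled libraries. Knockout replicates 1 to 3 lay within the range of the forestomach controls and the other 2 above it, all below the hindstomach controls (log2 fold change -2.23, SE 0.60, adjusted p = 0.032), and the call was lost with the GC covariate (-0.95, adjusted p = 0.0699) and without any 1 hindstomach control or any 1 of knockout replicates 1 to 4. In the knock-in comparison its log2 fold change was 0.02 (adjusted p = 0.983), and 1.39 with the GC covariate, which passed the test (adjusted p = 0.0392).

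Mgst3 was at 85.1, 62.1 and 86.2 FPKM in the hindstomach controls and at 1.82, 1.46, 1.52, 9.74 and 25.4 FPKM in the knockout libraries. It was at 46.0, 36.2 and 2.002 FPKM in the forestomach controls and at 0.774, 0.526 and 8.42 FPKM in the knock-in-labelled libraries. In the 3 groups other than the hindstomach controls the libraries with a low GC slope were the low ones. It fell by 3.83 in the knockout (SE 1.02, adjusted p = 0.0303) and by 1.44 with the GC covariate (adjusted p = 0.00172), and the call was lost without any 1 hindstomach control or any 1 of knockout replicates 1 to 3 (adjusted p up to 0.179 over all settings). In the knock-in comparison its log2 fold change was -2.56 (adjusted p = 0.131), and -3.83 without forestomach control replicate 5 (adjusted p = 0.0104).

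**Figure D4:**
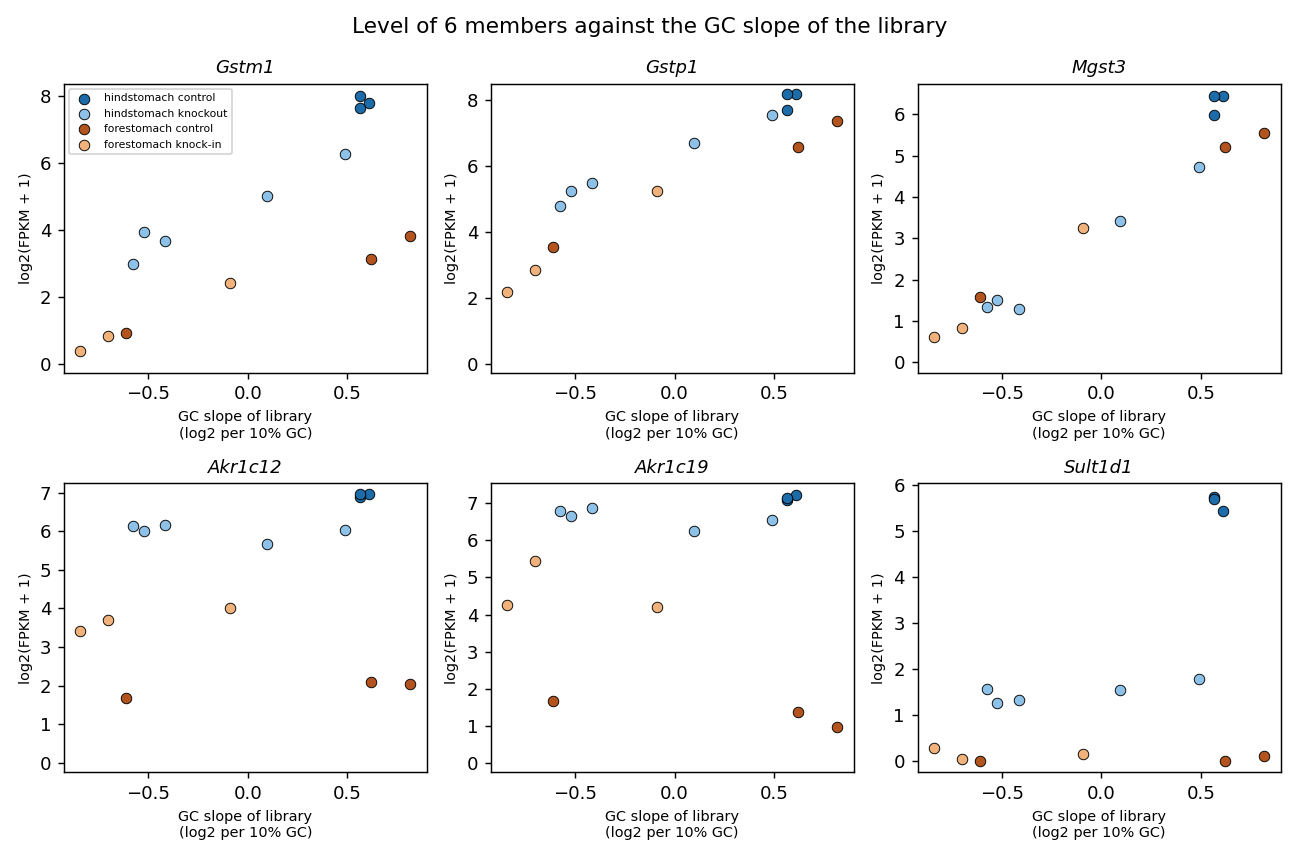
Level of 6 genes, as log2(FPKM + 1), against the GC slope of each library (log2 per 10% GC), coloured by group. Gstm1, Gstp1 and Mgst3 are mostly higher in libraries with a higher slope within the knockout, forestomach control and knock-in groups, whereas Akr1c12, Akr1c19 and Sult1d1 stay near their group level across slopes from -0.84 to 0.816.

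The knockout libraries were also set against the forestomach controls, a comparison that shares each group with those above. Of the 36 genes 8 were higher and 3 lower, 30.6%, where 13.9% of all genes were called, 8.34% higher and 5.55% lower. The higher genes were Akr1c12, Akr1c13, Akr1c19, Gsta3, Sult1d1, Ugt2b34, Ugt2b35 and Ugt8a, and the lower ones Gsta2, Ugt1a6a and Ugt1a6b. Leaving out 1 library ended the call of Ugt8a for 9 of the 14 libraries, that of Gsta2 for 4 (knockout 2 or 4, forestomach control 2 or 3) and that of Ugt1a6a for forestomach control 3. Apart from Gsta3 and Gsta2, no glutathione transferase was called. With the GC slope as a covariate 19 genes were higher, among them Gstm1 (log2 fold change 2.82, adjusted p = 2.89e-06) and Gstp1 (1.38, adjusted p = 0.000558). In that fit 3046 of all 12694 genes were higher, against 1059 in the main fit.

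Genes that supply or control these enzymes were followed in a list of 74, of which 60 were tested. In the knockout 12 were lower and 0 higher by limma (1 higher at an unadjusted p under 0.05). That was 20% of the 60, where 13.2% of all genes were called, 6.96% higher and 6.28% lower. The lower count was 28 without knockout replicate 5, 26 without forestomach control replicate 5 and 7 without hindstomach control replicate 4. Over all 12694 genes the lower counts in these fits were 2361, 2647 and 198. The median log2 fold change was -0.65 against -0.08 for all genes. Nr1i2, the xenobiotic receptor PXR, fell from a mean of 8.60 to 1.04 FPKM (log2 fold change -2.34, adjusted p = 0.000844). Ugdh, which makes UDP-glucuronic acid, fell from 66.7 to 35.5 FPKM (-0.88, adjusted p = 0.00243). The gut and liver transcription factor Foxa3 fell by 1.58 (adjusted p = 0.00395), and the retinal dehydrogenase Aldh1a1 fell by 1.38 (adjusted p = 0.00492). None of the 6 peroxidases or 4 efflux pumps was called, and of 18 tested genes of the electrophile response 2 fell.

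Between control regions 18 of the 60 list genes were higher in the hindstomach and 4 lower. That was 36.7% in all, where 20.3% of all genes were called, 9.7% higher and 10.7% lower. Hnf4a, a regulator of columnar gut epithelium, averaged 21.2 FPKM against 0.0267 FPKM (log2 fold change 4.43), Foxa3 12.5 against 0.108 FPKM and the cytochrome Cyp3a13 5.78 against 0.361 FPKM. Nr1i2 averaged 8.60 FPKM in the hindstomach and was listed at 0 in all 3 forestomach controls. Of the 6 sulfate-donor genes 4 were higher, among them Papss2, a PAPS synthase (7.74 against 2.06 FPKM, log2 fold change 1.53, adjusted p = 0.000866). The 4 lower genes were Cyp1b1, Me1, Nqo1 and Gclm, the last 3 being genes of the electrophile response, in which 4 others were higher. The call of Gclm (adjusted p = 0.0489) was kept for 2 of the 14 libraries left out in turn. In the knock-in comparison 4 list genes rose and 2 fell, 10% of the 60, where 5.85% of all genes were called, 2.62% higher and 3.22% lower. The lower count was 18 without forestomach control replicate 5, 10 without knock-in replicate 4, 0 without forestomach control replicate 2 and 1 without any one of 10 other libraries (hindstomach control 2, 3 or 4, knockout 1, 2, 3 or 4, forestomach control 3, or knock-in 1 or 2), and the higher count was 2 without forestomach control 2 or knock-in 1. Of all 12694 genes 5272 were lower without forestomach control 5, 2389 without knock-in 4 and 48 without forestomach control 2. The higher counts over all genes were 70 without forestomach control 2 and 68 without knock-in 1. Aldh1a1 rose from 17.9 to 107 FPKM (log2 fold change 2.54, adjusted p = 0.000518), and Adh7 and Ces1d rose by 1.35 and 1.37 (adjusted p = 0.00114 and 0.0209), while Nqo1 fell by 1.27 (adjusted p = 0.0107). The calls of the sulfate transporter Slc26a2 (log2 fold change 1.10, adjusted p = 0.0471) and of Papss1 (-0.94, adjusted p = 0.0443) were each kept for 3 of the 14 libraries left out in turn, and that of Ces1d was lost without forestomach control 2 or knock-in 1 and that of Nqo1 without forestomach control 2. Nr1i2 was not among them. Hnf4a was at 0.0620, 0.018 and 0 FPKM in the forestomach controls and at 0.470, 0.318 and 1.16 FPKM in the knock-in-labelled libraries, without overlap. It was not called (log2 fold change 0.65, adjusted p = 0.161) and passed with the GC covariate (1.14, adjusted p = 0.0385). In the knockout against the forestomach controls 4 list genes were higher, namely Hnf4a, Foxa3, Cyp3a13 and Gclc, and 5 were lower, namely Nqo1, Me1, Cbr3, Ugdh and Cyp1b1. That was 15% of the 60, near the 13.9% of all genes called, 8.34% higher and 5.55% lower. The lower count was 18 without forestomach control replicate 5 and 3 without forestomach control 2 or 3 or knockout 2, and the call of Cbr3 (adjusted p = 0.0464) was kept for 3 of the 14 libraries left out in turn. Over all 12694 genes the lower counts in these fits were 2576, 312, 524 and 471.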

How the data were processed

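The authors deposited 1 table of FPKM values with 1 column per library, from RNA of isolated E14.5 stomach epithelium (NEBNext Ultra II Directional kit, per the labels' protocols). The submitters' processing notes name build mm9. The aligner, FPKM program and treatment of strand and multi-mapping reads were not given in the sources used here. Of 22906 entries 108 exact duplicates were dropped, 1 of them among these genes. The 12694 genes with 3 or more of 14 libraries at 1 FPKM or above were fitted as log2(FPKM + 1) with limma 3.58.1 in R 4.3.3 (trend and robust), 1 mean per group, with calls made where the Benjamini-Hochberg adjusted p was under 0.05. Fold changes on this scale understate the change of low genes. FPKM holds no counts, so absolute depth is unknown, and p-values reflect the spread among these samples alone, possibly a technical one. Two-sided exact permutation tests used scipy 1.17.1.

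The members and lists were chosen with earlier results of these data known. Named are genes called in any comparison, the highest of each family and any gene reaching 10 FPKM; values in every library are given for the 3 genes per family with the smallest adjusted p, and up to 5 called list genes per direction. Values of Gsta3, which is outside those 3, of Akr1c14, Akr1c18, Akr1b3, Akr1c6, Akr1c20, Akr1c21, Sult1a1 and Ugt2b36, and the names of further called list genes, were added after they were seen. Transcript GC content and 50-base windows came from GENCODE vM21 on GRCm38, with 99.19% of tested genes matched. Promoters came from the RefSeq table of GRCm38.p6 and were aligned with Biopython 1.88. Same-numbered hindstomach libraries did not deviate together (r from -0.255 to 0.059), so replicate numbers were not taken as pairs. Some other libraries had strongly correlated deviations from their group means. Knock-in 4 and forestomach control 2 had an r of 0.721, and knockout 5 and forestomach control 5 an r of -0.871. The main fit does not model such shared deviations, and their cause was not tested. Simulated data with known changes were used to test the fit. Their noise was independent between genes and libraries and held no GC slope, so they do not check the fit where libraries deviate together. Alternatives were another pseudocount, no filter, other scalings, a fit of 2 groups, a GC covariate, a replicate block and leaving out each library.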

Additional observations from a re-analysis of the deposited data

Results flagged for a closer look

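Of the 36 tested genes 2 had a library that stood apart from the other 4 of the knockout group, the only group large enough to be examined this way. Akr1c12 was at 50.2 FPKM in knockout replicate 4 and at 63.8 to 70.2 FPKM in the other 4, a gap of 0.714 of the group's range. Gstt1, a theta-class transferase, was at 2.44 FPKM in knockout replicate 5 and at 0.400 to 0.805 FPKM in the others, a gap of 0.718 of the range. Chance alone marks about 1 in 20 such groups.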

How the results depend on the processing

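Counts of called genes of these families moved by over 1.5 times as follows. With no filter on low values 6 were lower in hindstomach than forestomach controls (3 in the main analysis). Over all genes 1712 of 19487 were lower in that fit and 1352 of 12694 in the main analysis. A fit of only the compared groups gave 23 lower in the knockout and 0 higher in the knock-in comparison, where all genes gave 3128 and 0. With the GC slope covariate 3 were higher in the knockout, 5 lower in the regional comparison and 19 higher in the knockout against the forestomach. All genes gave 964, 2512 and 3046. With the replicate number as a block 0 were higher (1 at an unadjusted p under 0.05) and 6 lower in the knockout, and 2 were higher in the knock-in comparison. All genes gave 58, 176 and 15. The block with the GC covariate gave 2 higher in the knockout and 3 in the knock-in comparison. It gave 5 lower in the regional comparison and 18 higher in the knockout against the forestomach. All genes gave 519, 59, 2094 and 2010. The samples share only a number: 1 of 3 knockout libraries correlated best with its same-numbered control.

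For the 74-gene list, rescaling to a common sum gave 1 higher in the knockout, 8 higher and 1 lower in the knock-in comparison and 8 higher in the knockout against the forestomach. All genes gave 1359, 567, 146 and 1805. Quantile normalization gave 1 higher in the knockout, 8 higher and 0 lower in the knock-in and 8 lower in the knockout against the forestomach. All genes gave 1260, 368, 121 and 683. A fit of only the compared groups gave 34 lower in the knockout, 0 higher and 0 lower in the knock-in and 11 higher in the regional comparison. For all genes these were 3128, 0, 0 and 662. The GC covariate gave 2 higher in the knockout, 11 lower in the regional comparison, and 14 higher and 10 lower in the knockout against the forestomach. For all genes these were 964, 2512, 3046 and 1560. The replicate block gave 7 lower in the knockout, 0 higher and 0 lower in the knock-in comparison and 3 lower in the knockout against the forestomach. For all genes these were 176, 15, 4 and 244. With the GC covariate the block gave 2 higher in the knockout, 0 lower in the knock-in, 9 lower in the regional comparison and 8 lower in the knockout against the forestomach. For all genes these were 519, 33, 2094 and 1174.

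Leaving out 1 library at a time, counts of these families ranged over 0 to 1 higher and 7 to 19 lower in the knockout, 3 to 6 higher and 0 to 19 lower in the knock-in, 13 to 16 higher and 2 to 4 lower in the regional comparison, and 7 to 8 higher and 1 to 7 lower in the knockout against the forestomach (1 without forestomach control 3, 7 without forestomach control 5). For the list these were 0 to 1 and 7 to 28, 2 to 6 and 0 to 18, 13 to 19 and 3 to 5, and 4 to 5 and 3 to 18. The 19 and the 18 lower in the knock-in comparison were both without forestomach control 5, where 5272 of all 12694 genes were lower. Gsta3 was not called higher in the knockout without hindstomach control 4.

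In the knockout against the forestomach the sign changed with the GC covariate for Cbr1 (0.36), Gsta4 (0.74), Gstt2 (0.67) and Slc35b2 (0.35), and with the block added for Gstt2 (0.76). Under all 22 alternatives 3 of 13 knockout calls were kept (Gstm3, Sult1d1 and Ugt2b35), 0 of 5 knock-in calls, 10 of 16 regional calls and 8 of 11 calls of the knockout against the forestomach, leaving out Gsta1 and Sult1b1. Rescaling moved the median of all genes from -0.08 to 0.18 in the knockout and from -0.37 to -0.05 in the knock-in comparison, and the split of all calls from 883 higher and 797 lower to 1359 and 520, and from 333 and 409 to 567 and 146. In the knockout against the forestomach it moved from 1059 and 705 to 1805 and 417. The cause of these shifts was not tested. Absolute depth is unknown, which limits what can be said of genes under 1 FPKM.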
